A study of Mus musculus with 2 samples.

Results

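The probes described here lie at olfactory receptor genes, on a pair of promoter arrays that measured where the transcription factor CREM was bound in germ cells of the adult mouse testis. They were chosen by name alone: every measured probe with a chromosome position whose array annotation gives a gene starting with Olfr. This gave 10097 of 237195 probes on array 1 and 9764 of 237185 on array 2, in all 19861 of 474380. They belong to 866 receptor gene names, 426 on array 1 and 440 on array 2, and no name was on both arrays. Germ cells of adult male C57BL/6 mice, pooled from 5 testes per the labels' protocol, were fixed with formaldehyde and sonicated, and their chromatin was pulled down with anti-CREM antibody, or with goat IgG for the negative control. The CREM pull-down carried Cy5 and the IgG pull-down Cy3, on both arrays. The arrays carry different probes, and each was hybridised a single time with no dye swap. A group is therefore 1 sample, no difference below has a replicate check or a p-value, and dye and antibody cannot be told apart. Intervals are 95% Wilson intervals and cover counting error only, and neighbouring probes share chromatin fragments, so the probes are not independent replicates.

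Olfactory receptors are the G protein-coupled receptors with which sensory neurons of the nose detect odorants. Their genes form one of the largest families of the mouse genome, are short, and lie in dense clusters on many chromosomes. A mature olfactory neuron is known to express a single receptor gene from a single allele, while the other receptor genes are held in silent chromatin, and a small number of receptors are also known from sperm, kidney and other tissues. CREM, of the CREB family, activates genes of haploid male germ cells and recognises the cAMP response element TGACGTCA and, more weakly, its core TGACG. Most receptor genes are not known for activity in the testis.

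The probes that stood highest and lowest among the receptors are shown first, because the account of exceptions turns on them. All are given as printed on the array, 5′ to 3′, with positions in build mm9. The array does not state the strand. The 3 probes of Olfr215 on chromosome 6 (chr6:116532461-116533101) formed the highest stretch of receptor probes that were well above background in both channels. Capitals mark the core TGACG or its reverse complement CGTCA.
Olfr215 probe 1: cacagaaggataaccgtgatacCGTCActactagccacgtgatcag
Olfr215 probe 2: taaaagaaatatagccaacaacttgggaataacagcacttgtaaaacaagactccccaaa
Olfr215 probe 3: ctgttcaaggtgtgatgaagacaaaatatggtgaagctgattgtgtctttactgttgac

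The probe with the highest ratio of array 2 among receptor probes measured in both channels lay at Olfr149 (chr9:39515178-39515237), and the lowest at Olfr902 (chr9:38254464-38254523). Neither holds the core in either orientation, so neither has capitals.
Olfr149: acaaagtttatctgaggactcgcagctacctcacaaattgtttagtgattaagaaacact
Olfr902: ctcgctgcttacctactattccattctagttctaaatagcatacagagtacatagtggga

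On the IgG side, 2 probes of Olfr722 near its start on chromosome 14 and the 3 probes of a CpG-rich stretch at Olfr94 (chr17:37334030-37334298) had the low values described further on. Here capitals mark CpG dinucleotides, of which the Olfr722 probes have none.
Olfr722 probe 2: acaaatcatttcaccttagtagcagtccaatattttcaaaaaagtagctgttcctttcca
Olfr722 probe 3: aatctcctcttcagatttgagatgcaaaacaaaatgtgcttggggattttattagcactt
Olfr94 probe 1: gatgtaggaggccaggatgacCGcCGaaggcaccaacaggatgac
Olfr94 probe 2: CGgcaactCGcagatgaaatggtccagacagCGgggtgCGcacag
Olfr94 probe 3: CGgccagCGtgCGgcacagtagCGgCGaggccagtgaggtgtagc

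All values are log2 of the CREM signal over the IgG signal, less the median over that array's probes, so 0 is the array's middle and 1 is 2-fold. A probe was used when the scanner software marked it well above background in at least 1 channel, which left 8946 receptor probes on array 1 and 8667 on array 2. The other 1150 (11.4%) and 1096 (11.2%) were dim in both channels, and 1 spot on each array was an outlier. A receptor gene had a median of 25 probes on array 1 (1 to 47) and 24 on array 2 (1 to 49), each 45 to 60 bases long. Repeated spots of 17 control probes per array give the technical error of a single ratio that is well above background in both channels. The typical SD was 0.14 on array 1 (0.08 to 0.23) and 0.12 on array 2 (0.06 to 0.28). Only 4 receptor probes on each array shared a run of 30 bases with a probe named for another gene, receptor or not. Among the arrays' receptor names, 415 and 419 are current RefSeq symbols, 11 and 15 were updated, and 6 on array 2 were kept as printed.

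Receptor probes sat slightly below the middle of both arrays and were narrower in spread than the rest. Their median was -0.11 on array 1, with quartiles of -0.44 and 0.28 and a range of -2.46 to 2.65. On array 2 it was -0.10, with quartiles of -0.45 and 0.30 and a range of -3.28 to 2.88. Their SD was 0.61 and 0.65, against 0.75 and 0.78 over all probes used. These medians are smaller in size than the SD of a single repeated control spot, which is the error of 1 ratio and not of a median. No second hybridisation gives their own spread. A ratio of 1 or more was found for 579 receptor probes of array 1 (6.47%, interval 5.98 to 7.0) where all probes gave 9.05%, and for 638 of array 2 (7.36%, 6.83 to 7.93) where all gave 9.85%. At -1 or less were 349 (3.90%) against 6.47% of all probes on array 1, and 380 (4.38%) against 6.57% on array 2. The shares of receptor probes were thus below those of all probes in both directions and on both arrays. At -1 or less this order reversed once the GC trend was removed, to 6.09% against 3.74% on array 1 and 6.48% against 4.37% on array 2. Without a filter on dim probes the shares at -1 or less were nearly level, at 6.93% against 7.24% and 7.55% against 7.57%.

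What a high ratio rests on differs with brightness. Receptor probes were dimmer: their median processed IgG signal was 504 on array 1 and 518 on array 2, against 788 and 779 for all probes used. Well above background in both channels were 6012 receptor probes (67.2%) on array 1 and 6145 (70.9%) on array 2, against 80.2% and 81.9% of all. A further 2931 (32.8%) and 2503 (28.9%) passed through the CREM channel alone. Such a probe had to be dim in IgG to fall in that class, so its ratio has only a lower bound and its high value supports nothing by itself. Their medians were 0.30 and 0.40, against 0.52 and 0.57 for all probes of that class. Only 3 and 19 receptor probes passed through the IgG channel alone, with a median of -2.14 on each array.

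Among receptor probes measured in both channels, almost none reached a ratio of 1. They were 42 of 6012 on array 1 (0.699%, 0.517 to 0.943) and 44 of 6145 on array 2 (0.716%, 0.534 to 0.960), where all probes of that class gave 4.57% and 5.17%. Their medians were -0.22 and -0.21, against -0.08 and -0.07. On the IgG side, 287 (4.77%) and 330 (5.37%) were at -1 or less, against 7.66% and 7.54% of all. Among receptor probes measured in both channels, those on the IgG side thus outnumbered those on the CREM side on both arrays. Over all receptor probes used, the CREM side was the larger, 6.47% against 3.90% on array 1 and 7.36% against 4.38% on array 2. All probes turned likewise, with 9.05% against 6.47% and 9.85% against 6.57%. The order depends on the filter. On array 1 the lowest IgG signal to pass was 306, while a receptor probe with a CREM signal of 111 passed. Among receptor probes measured in both channels, ratios of 2 or more were found for 2 on array 1, both at Olfr215. On array 2 there was 1, at Olfr149, while 5 and 7 lay at -2 or less.

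Of the receptor probes at 1 or more, 92.7% on array 1 and 93.1% on array 2 were dim in IgG, against 59.5% and 57.1% of all probes at 1 or more. Setting each such IgG value to the lowest signal that was well above background (306 on array 1, 288 on array 2) gives the smallest ratio these probes allow. By that bound, 22 of 537 (4.10%) and 31 of 594 (5.22%) stayed at 1 or more, against 18.2% and 18.0% of all probes of that kind. The highest bound was 1.35 on array 1 and 1.90 on array 2. The median CREM signal of these 537 and 594 probes was 219 and 225, below those IgG floors.

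The shares changed with brightness, taken as the mean log2 signal of both channels. On array 1, 45.8% of the 592 receptor probes under 7 had a ratio of 1 or more, against 53.1% of other probes. Between 9 and 10, 1.28% of 2257 did, against 5.87%, and between 10 and 11, 0.233% of 1285 did, against 5.62%. On array 2 the same 3 classes gave 57.0%, 1.27% and 0.588%, against 63.7%, 6.36% and 6.14%. No probe under 7, of either set and on either array, was measured in both channels. Each was dim in at least 1 channel, so that class is no baseline for the brighter ones. In both classes above 9 the share of receptor probes lay below that of other probes by a wide gap. On the IgG side the dimmer classes did not share this gap. Between 7 and 8, 6.16% of receptor probes of array 1 were at -1 or less, against 5.80% of others, and between 8 and 9 6.18% against 5.96%. On array 2 these were 6.97% against 8.16% and 7.12% against 7.36%. Receptor probes between 10 and 11 gave 1.63% on array 1 and 1.47% on array 2, against 6.30% and 5.72% of other probes.

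**Figure D1:**
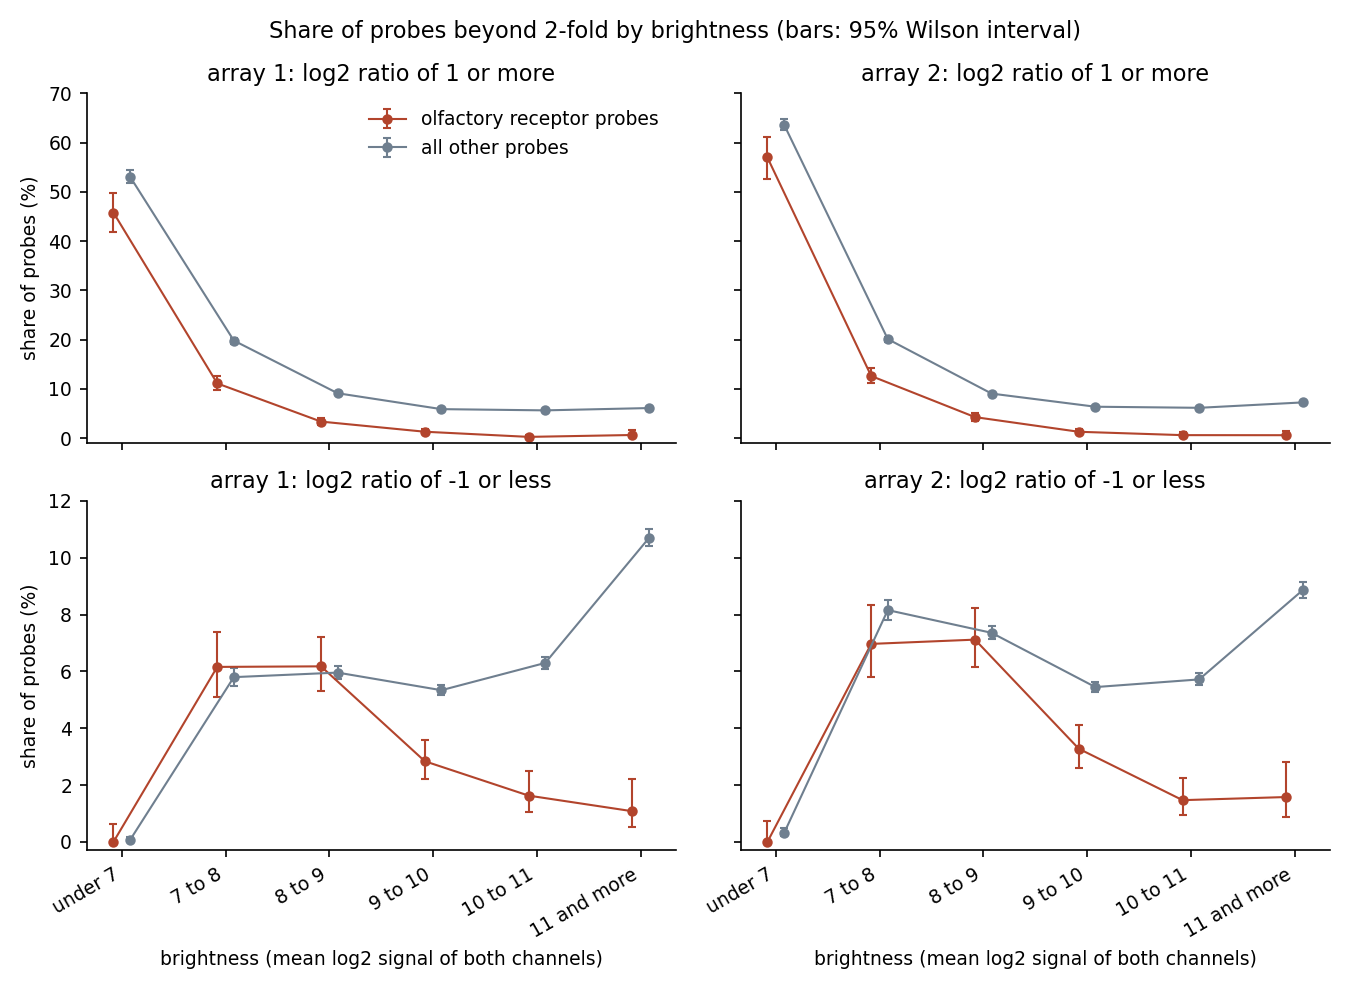
Share of probes (%) with a log2 ratio of CREM over IgG of 1 or more (top) and of -1 or less (bottom), by brightness class (mean log2 signal of both channels), on array 1 (left) and array 2 (right); red points are olfactory receptor probes, grey points all other probes, and bars are 95% Wilson intervals. Receptor probes between 9 and 10 give 1.28% and 1.27% at 1 or more, against 5.87% and 6.36% of other probes.

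Receptor probes are poorer in G and C than the rest, which moves with the ratio on these arrays. Their median GC content was 36.7% on both arrays, against 40.4% for all probes used, and 79.1% and 77.9% held no CpG, against 57.4% and 56.5%. Among other probes measured in both channels on array 1, the median ratio was 0.06 at 35 to 40% GC and -0.56 at 50% and more. Receptor probes did not share that slope: theirs were -0.21 in 2989 probes and -0.32 in 147 probes of the same classes. Within 35 to 40% GC, 0.836% of these receptor probes of array 1 and 0.779% of 3209 on array 2 had a ratio of 1 or more, against 6.13% and 6.54% of other probes. At -1 or less the order turned with GC content. At 35 to 40% GC, 4.42% and 5.27% of receptor probes were at -1 or less, above the 1.92% and 2.58% of other probes. At 50% GC and more, which 2.45% of these receptor probes of array 1 reach, 4.08% of receptor probes and 28.7% of other probes of array 1 were at -1 or less, and 6.93% (7 receptor probes) and 27.1% on array 2. The lower share of receptor probes at 1 or more was thus also found at matched GC content. The part of base composition in the other differences was not tested.

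CpG number gave a like picture. Of other probes of array 1 with 3 or more CpG, 56.2% were at -1 or less, with a median of -1.13, against 3 of 15 receptor probes with a median of -0.73. On array 2 these were 50.9% and -1.02, against 7 of 22 receptor probes (31.8%) and -0.43. Receptor probes without a CpG, 4730 and 4717 of those measured in both channels, had medians of -0.21 and -0.22, while other probes without one were at -0.02 on both arrays.

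High receptor probes also had few high neighbours. For receptor probes measured in both channels and starting at most 500 bp apart, the ratios of neighbours correlated at 0.356 over 3635 pairs on array 1 and 0.351 over 3755 on array 2, against 0.483 and 0.493 for other probes, as a description of pairs within 1 hybridisation. When the first probe of such a pair was at 1 or more, so was the next in 5 of 29 receptor pairs on array 1 and in 0 of 27 on array 2. For other probes these shares were 41.6% and 43.8%. They are read against the share of all probes measured in both channels that reached 1. That was 0.699% and 0.716% for receptor probes, and 4.71% and 5.32% for other probes. Whether the neighbours differ beyond that lower share was not tested. The median distance between these receptor neighbours was 170 and 169 bp.

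Genes were read from windows, each the median of 3 successive probes whose starts lie no more than 500 bp from the next, and a gene was called where its highest window was at 1 or more. Of 866 receptor genes, 795 had a window. On array 1, 72 of 392 were called (18.4%, 14.8 to 22.5), against 33.3% over all genes. On array 2 it was 77 of 403 (19.1%, 15.6 to 23.2), against 35.5%. With normexp background correction 1 and 3 receptor genes (0.255% and 0.744%) were called, against 10.2% and 22.2% of all genes. The authors' deposited table gave 6 and 4 (1.53% and 0.993%), against 17.9% and 16.7%. A median receptor gene had 16 and 14 windows, against 19 for all genes on both arrays, and so fewer chances to be called.

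When all 3 probes of the window had to be well above background in both channels, the calls nearly vanished. On array 1, 4 of 343 receptor genes passed (1.17%, 0.454 to 2.96), beside 15.8% of all genes. On array 2, 1 of 366 did (0.273%, 0.0482 to 1.53), beside 18.1%. The median of the highest such window was 0.12 and 0.08 per receptor gene, against 0.43 and 0.46 per gene over all. On the IgG side, 17 receptor genes (4.96%) of array 1 had such a window at -1 or less, where all genes gave 32.3%, and 33 (9.02%) of array 2, where all gave 30.5%. In both directions the share of receptor genes lay below the share of all genes, and the IgG side of genes was not recomputed without the GC trend, which reversed it for probes. Fewer receptor windows met this demand, 37.1% and 40.9%, against 56.3% and 59.4% of all windows, so receptor genes had fewer chances in both directions. Counted by window, 6 of 2311 and 1 of 2381 were at 1 or more, against 3570 of 98879 and 4236 of 103715 of all. The part of unequal chances in the gene shares was not tested.

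**Figure D2:**
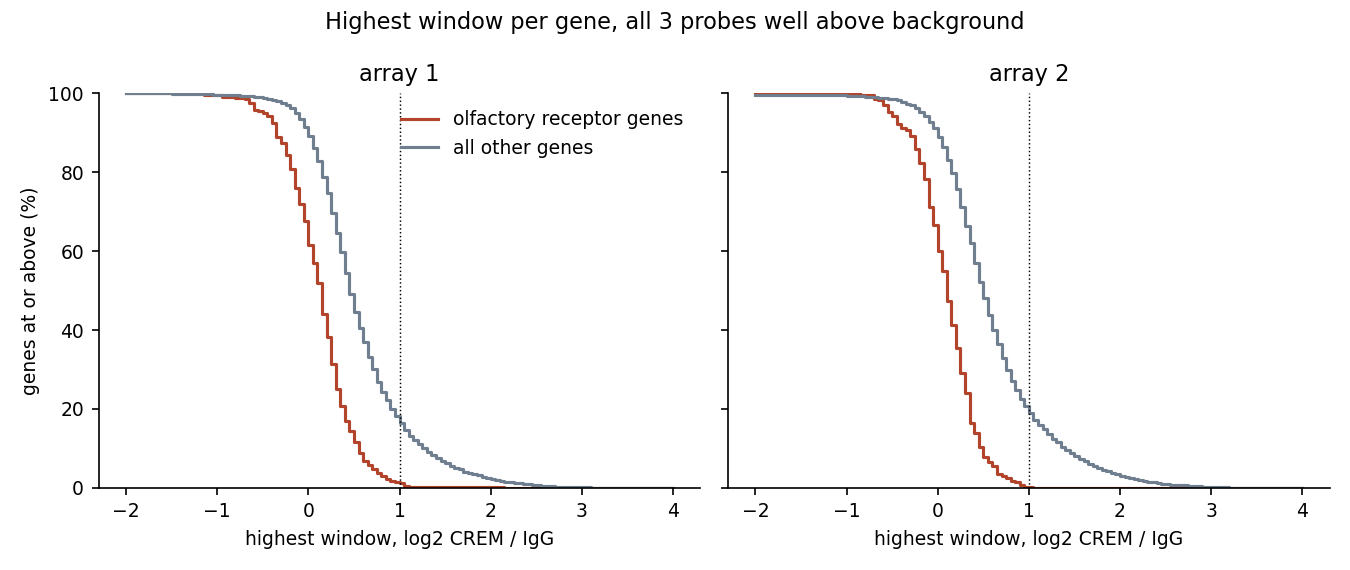
Share of genes (%) whose highest window, the median log2 ratio of 3 neighbouring probes all well above background in both channels, is at or above the value on the horizontal axis, for olfactory receptor genes (red) and all other genes (grey) on each array; the dotted line marks 1. At 1 the receptor curve is at 1.17% on array 1 and 0.273% on array 2.

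Olfr215 was the receptor gene that stood apart on array 1. Its window was at 2.15, from probes at 2.44, 2.15 and 1.18, in the order shown above. Their IgG signals were 3840, 2120 and 558, and their CREM signals 21200, 9550 and 1290, so the window does not rest on a dim control. The window held at 2.28 with normexp background correction, at 2.23 with loess and at 2.08 in the authors' deposited table. Over the gene, 24 probes were used with a median of 0.49, 7 were at 1 or more, and 4 of those 7 were measured in both channels. The next probe on each side of the window was at 0.09 and 0.46. No other gene was named by the array within 10 kb of it. Among other genes of array 1, 1.57% had a highest window measured in both channels at 2.15 or more.

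The first Olfr215 probe is also the one that carries the core CGTCA, and it holds 3 CpG. It was the only 1 of 55 receptor probes on array 1 that held the core, were measured in both channels and reached 1, and 0 of 73 did so on array 2. The Olfr215 probe 3 matches the RefSeq promoter of Olfr215, with the probe's middle 110 bp before the annotated start. Promoter here means the 250 bases before and 50 after that start. Those last 50 bases begin with ATG, so the start may be that of the coding sequence, and a transcription start is not shown. The probes at 2.44 and 2.15 do not match that promoter. It is shown because the probe at 1.18 lies in it (RefSeq, GRCm38.p6, chr6:116582895-116583194, minus strand, positions not comparable with mm9), and capitals mark the bases that the probe matches as a reverse complement.
Olfr215 promoter: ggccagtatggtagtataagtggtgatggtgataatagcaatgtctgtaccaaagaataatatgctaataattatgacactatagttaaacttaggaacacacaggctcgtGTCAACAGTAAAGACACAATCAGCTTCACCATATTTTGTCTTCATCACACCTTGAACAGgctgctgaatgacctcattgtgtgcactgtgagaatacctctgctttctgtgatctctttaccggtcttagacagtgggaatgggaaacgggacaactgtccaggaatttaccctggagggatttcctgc

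The other called windows measured in both channels were close to the threshold. Olfr1415 on chromosome 1 reached 1.07 from probes at 1.07, 1.23 and -0.48. Olfr640 and Olfr623, both in the large chromosome 7 cluster, reached 1.03 (probes 0.49, 1.03 and 1.40) and 1.00 (1.14, 1.00 and 0.29). Next below 1 was Olfr430 on chromosome 1, at 0.99 with probes at 0.16, 1.65 and 0.99. In these 4 windows at least 1 probe lay under 0.5, against 1.18 for the lowest Olfr215 probe. On array 2, Olfr181 on chromosome 16 was the 1 called gene, at 1.02 with probes at 1.02, 0.91 and 1.71, IgG signals of 919, 557 and 333 and CREM signals of 1890, 1060 and 1100. Olfr735 (0.94), Olfr283 (0.92), Olfr905 (0.89) and Olfr197 (0.89) followed below the threshold. In the authors' deposited table the highest windows of Olfr1415 (0.84), Olfr640 (0.98), Olfr623 (0.83) and Olfr181 (0.87) were below 1. None of the probes in these 9 windows holds the core TGACG.

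The highest windows of any brightness were mostly those of dim controls. Olfr16, also called MOR23, is a receptor known from sperm, where it has been linked to chemotaxis, and it had the highest receptor window of array 1, at 2.25 from probes at 1.28, 2.25 and 2.65. All 3 were not well above background in IgG, with IgG signals of 63.8, 85.4 and 77.7 against CREM signals of 157, 414 and 495, and the window was at least 1.33-fold by the IgG floor. It was at 1.22 in the authors' deposited table and at 0.27 with normexp correction. Its highest window measured in both channels was 0.50. Of its 35 probes, 8 were at 1 or more, of which 1, at 1.03, was measured in both channels, and the 25 probes measured in both had a median of 0.02 and a range of -0.99 to 1.03. The 2 probes matching its RefSeq promoter, with middles 112 bp before and 3 bp after the start, were measured in both channels and stood at 0.47 and 0.07.

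**Figure D3:**
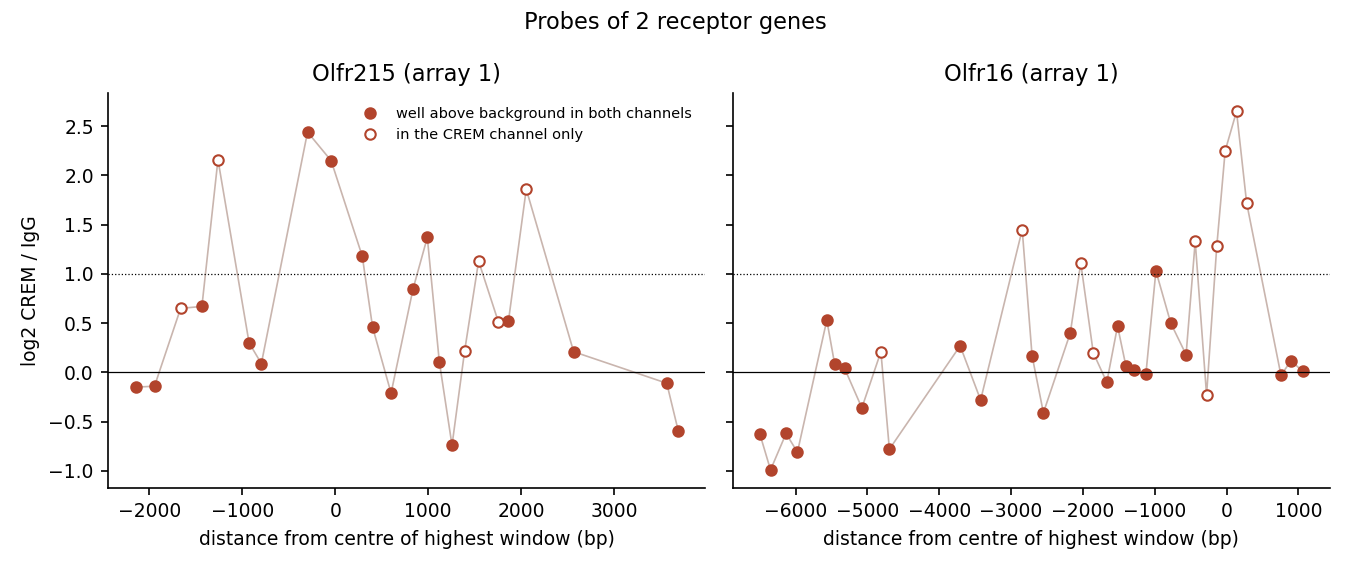
Log2 ratio of CREM over IgG of each probe used at Olfr215 (left) and Olfr16 (right) on array 1, by distance in bp from the centre of the gene's highest window; filled points are well above background in both channels, hollow ones in the CREM channel only, and the dotted line marks 1. The Olfr215 window at 2.15 is made of filled points and the Olfr16 window at 2.25 of hollow ones.

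The rest of that list was alike. Olfr655 (1.94), Olfr414 (1.81) and a second stretch of Olfr1415 (1.74) on array 1, and Olfr1364 (1.79), Olfr1463, Olfr397 and Olfr1449 (1.74 each) and Olfr985 (1.71) on array 2, each had at least 2 of 3 probes not well above background in IgG. By the IgG floor none of these 8 windows keeps a ratio above 0, so no fold is given for them. Several paired a bright probe near 0 with dim high ones: in Olfr985 the middle probe had an IgG signal of 1070 and a ratio of -0.27, between neighbours at 2.02 and 1.71 with IgG signals of 97.3 and 61.3.

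Other receptors with known roles did not reach 1. Olfr2, the I7 receptor, which responds to octanal, was at 0.39 in its highest window, and Olfr78, a receptor of the carotid body and kidney vessels, at -0.25. Olfr151, also called M71 and known from axon-targeting studies, was at 0.50. Olfr1508 and Olfr1509, of the chromosome 14 cluster known for the distal H enhancer, were at 0.63 and 0.55. With Olfr16, 6 of 10 such receptors looked for had probes. Olfr17, Olfr160, Olfr73 and Olfr1507 were not analysed here.

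On the IgG side, Olfr722 on chromosome 14 was lowest, at -1.72 (probes -1.01, -2.03 and -1.72, IgG signals of 812, 487 and 828). The probes numbered 2 and 3 above match its RefSeq promoter, with middles 17 bp after and 123 bp before the start. Olfr1367 on chromosome 13 was at -1.66 (-1.93, -1.66 and -0.69). Olfr94, in the chromosome 17 cluster, was at -1.60 (-1.03, -1.60 and -1.71), and differed in sequence: its 3 probes had 60.0%, 62.2% and 71.1% GC and 2, 4 and 5 CpG, as shown above, while its 33 probes had a median of 0.11. On array 1 the lowest were Olfr141 (-1.48), Olfr1212 (-1.29) and Olfr350 (-1.22), all on chromosome 2. Olfr1212 had a median of -0.70 over 23 probes, of which 7 were at -1 or less and 1 was at 1 or more.

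Single probes could be far from their neighbours. The Olfr149 probe at 2.47 (IgG 1180, CREM 6620) lay between probes at 1.04, 161 bp away, and -0.41, 626 bp away. The Olfr902 probe at -3.28 (IgG 2270, CREM 237) lay between -1.06 and 1.47, at 131 and 186 bp. On array 1 the lowest such probes were at Olfr1018 (-2.46), Olfr1193 (-2.39) and Olfr853 (-2.33). The Olfr1018 probe lay between -0.68 and -0.18, at 237 and 118 bp. Neighbours of the Olfr1193 probe were at -0.79 and 0.56, but 1565 and 1868 bp away. Those of the Olfr853 probe were at 0.17, 36764 bp away, and -0.82, 234 bp away. These named probes were picked as the most extreme, so ratios larger in size than the spread of repeated control spots follow from that choice. Over receptor probes measured in both channels the SD of the ratio was 0.47 on array 1 and 0.48 on array 2. None of the extreme ratios was seen in a second hybridisation.

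Gene by gene, most receptor medians were not above 0, and the like spread over other genes is not given here. Over 814 genes with at least 5 probes used, the gene medians had quartiles of -0.23 and 0.02, and 231 were above 0. The lowest was Olfr1469 at -0.71 over 21 probes. The highest, and the only 1 at 1 or more, was Olfr787 on chromosome 10 at 1.05, but 2 of its 9 probes were measured in both channels.

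Receptor genes under 500 kb apart formed 54 clusters, of which 11 held a single gene and 23 held at least 10 genes, 761 in all. None was split between the arrays. In the 23 large clusters the median ratio ran from -0.21 to -0.01, and over the probes measured in both channels from -0.39 to -0.08, below 0 in all 23. The share of probes at 1 or more ran from 4.95% to 11%. Over these 23 clusters, which come from 2 hybridisations, the median ratio correlated with the median brightness at 0.74 and the share at 1 or more at -0.19, as descriptions.

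The largest cluster, on chromosome 9 (chr9:37536065-39995651, array 2), holds 98 genes, among them Olfr151, and had a median of -0.09. Of its 1296 probes measured in both channels, 7 (0.540%) were at 1 or more. The cluster of 87 genes on chromosome 2 (chr2:85415499-89142931, array 1) had a median of -0.15 and 1 such probe of 889 (0.112%), the lowest share among the 10 largest. It also holds Olfr141, Olfr1212, Olfr1018 and Olfr1193 of the IgG side.

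The next in size, on chromosome 7 (chr7:109624243-112491402, 76 genes, array 1), contains the class I receptors, the fish-like branch of the family, around the beta-globin genes. Its median was -0.11, and 9 of 1212 probes (0.743%) were at 1 or more. It held Olfr640 and Olfr623, 2 of the 4 receptor genes of array 1 called with all probes measured in both channels.

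The clusters of 60 genes on chromosome 19 (chr19:11902540-13994799) and 52 on chromosome 10 (chr10:128423860-129653545) had medians of -0.10 and -0.14, with 0.832% and 0.317% of probes measured in both channels at 1 or more. The 44 genes beside the major histocompatibility complex on chromosome 17 (chr17:37221970-38474391), among them Olfr94, had a median of -0.10 and 0.640%. The remaining 4 of the 10 largest, on chromosomes 7, 9, 11 and 14 with 39, 30, 29 and 27 genes, had medians between -0.19 and -0.07 and shares of 0.425% to 0.654%. The 10 largest hold 542 genes, and their shares differ by less than the gap between any of them and all probes of the arrays, 4.57% and 5.17%.

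Among the 23 clusters of at least 10 genes, the share at 1 or more of probes measured in both channels had its ends in smaller ones. On chromosome 16 (chr16:58758844-59364386, 26 genes), 5 of 278 probes (1.80%) were at 1 or more, and Olfr181 and Olfr197 lie there. A chromosome 2 cluster of 21 genes (chr2:36227501-37189783), which holds Olfr350, had 0 of 328. Taken as 3 over 328, not as a Wilson interval, this allows a share of up to 0.915%. The small chromosome 6 cluster of Olfr215 (chr6:116438876-116536502, 5 genes, Olfr211 to Olfr215) lay above both: 7 of 79 such probes (8.86%) were at 1 or more, also above the 4.57% of all probes of array 1, and its median over all 106 probes used was 0.15. Olfr215 gave 4 of those 7. Without it, 3 of 61 (4.92%) were at 1 or more and the median was 0.04.

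**Figure D4:**
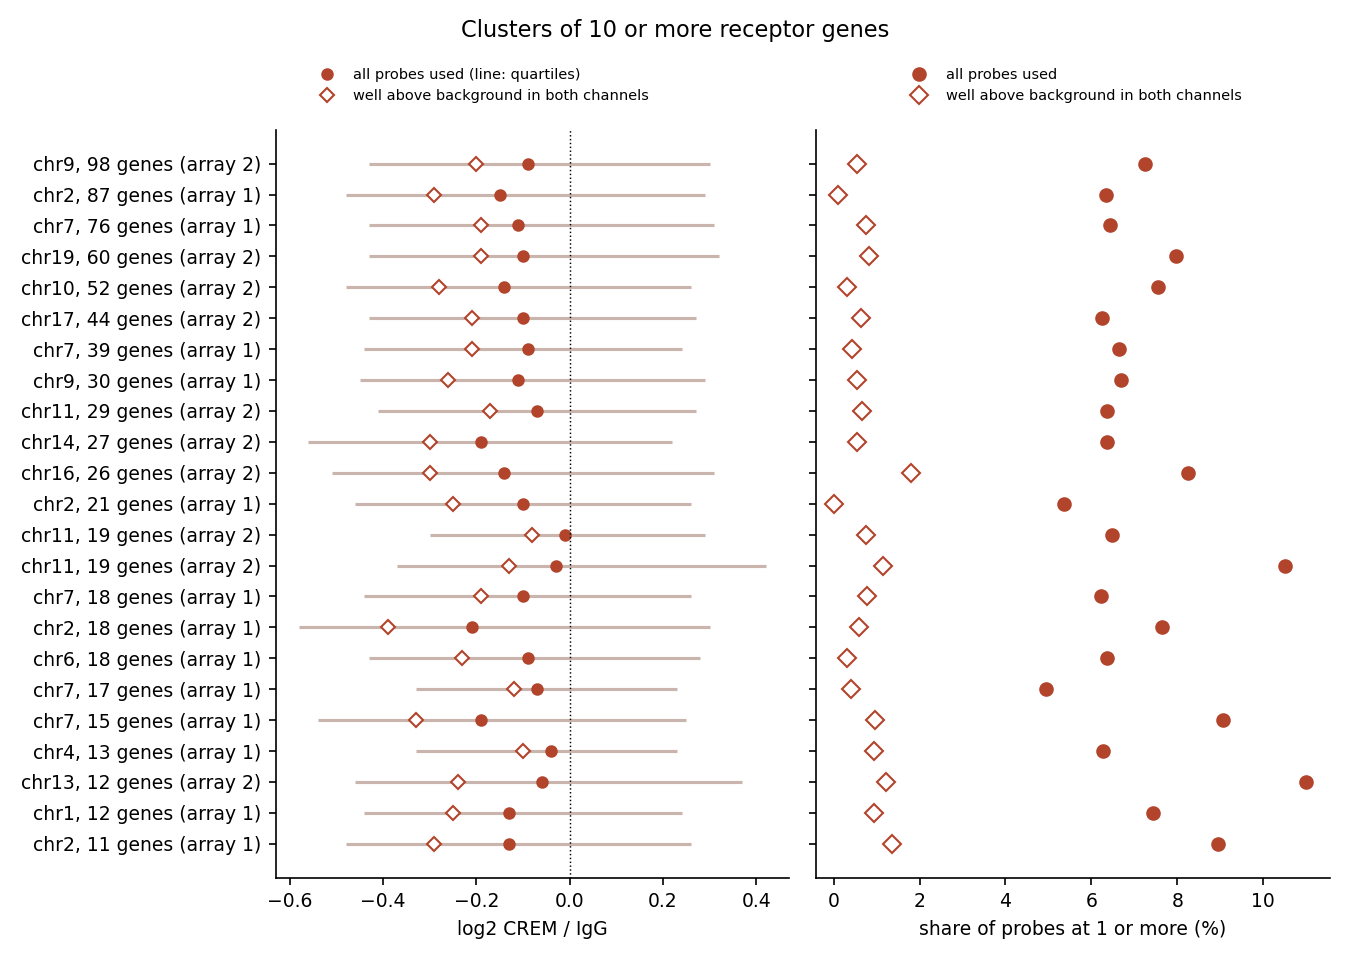
Clusters of at least 10 olfactory receptor genes, by number of genes: left, median log2 ratio of CREM over IgG of all probes used (filled, line from lower to upper quartile) and of probes well above background in both channels (hollow); right, share of probes (%) at 1 or more for the same classes. All 23 hollow medians are below 0, between -0.39 and -0.08.

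No receptor probe held the full element TGACGTCA, searched on both strands. The counts were 0 of 8946 and 0 of 8667, against 0.0657% and 0.0528% of other probes. The core TGACG, which the full element also contains, was in 84 (0.939%) and 92 (1.06%) receptor probes, against 2.11% and 2.15% of others. Their medians, -0.14 and -0.15, were near those of receptor probes without it, -0.11 and -0.10. At 1 or more were 8 (9.52%) and 3 (3.26%), against 6.47% and 7.36% of all receptor probes used. Other probes with the core gave 11.2% and 12.2%. Of those 8 and 3 receptor probes, 1 and 0 were measured in both channels. At -1 or less were 1 of 84 and 7 of 92, against 3.90% and 4.38% of all receptor probes used.

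The RefSeq promoters, from 250 bases before to 50 after each start, show the same sparseness (GRCm38.p6). The full element was in 1 of 948 receptor promoters (0.105%), that of Olfr224, against 1.79% of all 32851, and the core in 5.59% against 20.8%. Letters of factors known to act in olfactory neurons were also counted. TAATTA, a core read by homeodomain factors such as Lhx2 and Emx2, was in 18.6% of receptor promoters against 5.29%, TAATGA in 28.8% against 9.78%, and CCCNNGGG, a core of the Ebf factors, in 3.06% against 13.7%. Median GC content was 35% in receptor promoters and 52.7% in all. A match is a description of letters only. Whether each RefSeq start is a transcription start was not checked, and that of Olfr215 falls at an ATG.

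Probes at receptor starts had medians near those of all receptor probes. By exact match to the RefSeq promoters, 364 probes of 262 promoters on array 1 had a median of -0.10, and 339 probes of 251 promoters on array 2 of -0.04. Measured in both channels, 4 of 255 (1.57%, 0.612 to 3.96) and 3 of 262 (1.15%, 0.390 to 3.31) were at 1 or more, against 6.92% and 8.45% of probes at other promoters. On the IgG side receptor promoters gave 4.71% and 4.58%, and other promoters, with a median of 51.1% GC in their probes, 27.5% and 25.6%.

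Other chemosensory receptor families had values like these. Vomeronasal receptor probes, which serve pheromone detection, had medians of -0.05 and -0.09, and of those measured in both channels 5 of 704 (0.710%) and 1 of 572 (0.175%) were at 1 or more. Trace amine receptors, a small family of olfactory neurons, had a median of -0.05 on array 2, with 3 of 268 (1.12%). Their intervals overlap those of the olfactory receptors (0.304 to 1.65 and 0.0309 to 0.984 for vomeronasal, 0.381 to 3.24 for trace amine receptors), and the families were not tested against each other.

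Genes that act with the receptors in olfactory neurons were measured the same way. Of 27 listed, 26 had a window, 9 were called, and 3 were called with all probes measured in both channels, read against 33.3% and 35.5%, and 15.8% and 18.1%, of all genes. Those 3 were Pde4a, a cAMP phosphodiesterase, at 1.85, Ric8b, a chaperone and exchange factor of the olfactory G protein, at 1.5, and Ebf1, a transcription factor of olfactory neurons and B cells, at 1.25. The channel subunits Cnga4 (1.90) and Cnga2 (1.40), the kinase Grk3 (1.39), and the regulators Ebf4 (1.84), Lhx2 (1.25) and Kdm1a (1.12) were called by windows with at least 1 probe not measured in both channels. The G protein subunit Gnal (0.98), the cyclase Adcy3 (0.49), the chloride channel Ano2 (0.53), the receptor transporters Rtp1 (0.53) and Rtp2 (0.55) and the olfactory marker Omp (0.23) were below 1. On the IgG side, 14 of the 26 had a window measured in both channels at -1 or less, read against 32.3% and 30.5% of all genes. Among them were Pde4a (-2.51) and Ebf1 (-1.35), which were also called on the CREM side.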

How the data were processed

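The deposited scanner files come from Agilent Feature Extraction 10.7.1.1 and give mm9 positions, per the file headers. The deposited intensity of a spot in each channel is background-subtracted and dye-normalised, per the file headers, with 0 or 1 flags (well above background, outlier, saturated). The log10 ratio column, per the file headers, was not used for values. The authors' deposited table holds log2 ratios, which came back to within 5e-08 on background subtraction and within-array loess. R 2.10.1 and limma are credited to the submitters' processing notes.

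Here the value was log2 of processed Cy5 over Cy3 less the array median (0.02 on both arrays), without loess. Control spots, outliers and probes dim in both channels were left out. Scripts used Python 3.11.15, pandas 2.3.3, R 4.3.3 and limma 3.58.1, and were tested on simulated data. Alternatives were normexp (offset 50), loess, the authors' values, no centring, other filters on dim probes, removal of the GC trend in 2% bins, and other windows and cluster distances. Named genes were, per array, the 5 highest windows of probes bright in both channels, the 5 highest of any brightness, the 3 lowest bright ones, 10 known receptors and 27 genes of the pathway. Single probes, Olfr787, Olfr1469 and Olfr224 were named after their values were seen. The members and lists were chosen with earlier results of these data known. RefSeq tables (GRCm38.p6) served for names and promoters. Exons and introns are not stated, as no mm9 annotation was used here.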

Additional observations from a re-analysis of the deposited data

How the results depend on the processing

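No paired analysis was possible because each group has 1 sample, and no replicate could be left out. The receptor median stayed below 0 under all 7 other settings on both arrays, and the share of receptor probes at 1 or more stayed below that of all probes. With normexp correction the medians were -0.04 and -0.22, and the called genes 1 and 3 (arrays 1 and 2). Probes at 1 or more were 18 and 36 (0.201% and 0.415%, against 2.13% and 4.88% of all probes). Those at -1 or less were 1 and 35 (0.0112% and 0.404%, against 0.720% and 1.31%). The authors' values gave medians of -0.09 and -0.07, and 6 and 4 called genes (1.53% and 0.993%, against 17.9% and 16.7% of all genes). At 1 or more were 98 and 66 receptor probes (1.1% and 0.762%, against 4.24% and 3.8% of all probes). At -1 or less were 79 and 57 (0.883% and 0.658%, against 4.06% and 3.51%). With loess array 1 had -0.12 and 374 probes at 1 or more (4.18%, against 8.17% of all probes). Called genes with loess were 35 on array 1 (8.93%, against 30.7% of all genes) and 49 on array 2 (12.2%, against 33.3%). Without centring both medians were -0.08. With only probes bright in both channels, centred on their own median, the medians were -0.14 on both arrays. At 1 or more were 59 receptor probes on each array (0.981% and 0.96%, against 5.48% and 6.05% of all such probes). At -1 or less were 216 and 263 (3.59% and 4.28%, against 6.6% and 6.53%). Called genes were then 7 and 3 (1.98% and 0.796%, against 19.8% and 21.8% of all genes). Without a filter on dim probes array 1 had -0.13, and 700 and 737 probes were at -1 or less. These were 6.93% and 7.55%, close to the 7.24% and 7.57% of all probes. With the GC trend removed the medians were -0.21 and -0.19. Array 1 then had 545 probes at -1 or less (6.09%, against 3.74% of all) and 41 called genes (10.5%, against 29.6%). Windows of 5 probes called 15 genes on each array (4.13% and 4.08%, against 18.8% and 20.8% of all genes). Olfr78 turned to 0.16 with normexp correction. Of 15 called genes named, 14 were below 1 with normexp correction and 13 in the authors' values, with Olfr215 above 1 in both. The causes were not tested. Clusters numbered 58 at 250 kb and 48 at 1000 kb. On array 1, 32.8% of receptor probes and on array 2, 28.9% were measured in the CREM channel only, which limits their ratios to bounds.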
